A study of Arabidopsis thaliana with 8 samples.

Results

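The floral meristem and organ identity MADS genes were followed in whole Arabidopsis thaliana seedlings by taking every array probe assigned to 10 loci, AP1 (AT1G69120), CAL (AT1G26310), FUL (AT5G60910, also AGL8), SEP1 (AT5G15800), SEP2 (AT3G02310), SEP3 (AT1G24260), SEP4 (AT2G03710), AP3 (AT3G54340), PI (AT5G20240) and AG (AT4G18960). All 10 were found among the 25665 loci of the array, each with 1 probe. The tested seedlings carried 35S:MYB87-SRDX, a fusion of the R2R3-type MYB factor MYB87 to the repressor motif SRDX under the constitutive 35S promoter, in the Columbia-0 ecotype (n = 4). The other group was wild type of the same ecotype (n = 4). Each sample pooled 5 T2 seedlings harvested at 2 weeks. The agar held 1% sucrose, days had 16 h of light and 8 h of darkness, and the temperature was 23 °C. The transgenic seedlings grew on hygromycin and the wild-type seedlings did not. Each group also lay on a slide of its own, so genotype, hygromycin and slide cannot be told apart in any value below. The labels do not say whether 1 or several transformed lines were used, nor whether samples of a group came from separate plates. The p-values therefore rest on sample-to-sample spread that may be technical. The labels call the wild-type seedlings T2 as well, and no group carried MYB87 without SRDX.

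MADS-domain factors of this set specify flowers. AP1, CAL and FUL act when the shoot tip changes to making flowers. The SEP proteins are shared partners that join the organ-specific factors into complexes, and AP3, PI and AG give petals, stamens and carpels their identity. In vegetative tissue most of these genes are held silent by Polycomb repression and by flowering repressors, and FUL is the member best known for activity outside flowers, in leaves and in the meristem at the transition to flowering. The study compared the seedling transcriptomes of both genotypes, and its title reports reduced organ growth under the fusion.

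Values are the scanner's processed signal as a percentage of the 75th percentile of the same array, unless a log2 scale is named. That percentile was a processed signal of 1539 to 1907 on the MYB87-SRDX arrays and 1602 to 2053 on the wild-type arrays. A probe well above background is one that the scanner software marks so. The dimmest such probe of an array lay between 0.661% and 0.809% in MYB87-SRDX and between 0.609% and 0.832% in wild type. The label was checked first. MYB87 (AT4G37780) read 5372%, 4587%, 4796% and 582% in MYB87-SRDX replicates 1 to 4, against 2.24%, 0.68%, 0.575% and 0.739% in wild type. On wild-type arrays 1 and 2 of the 4 the probe was well above background. MYB87-SRDX replicate 4 read clearly lower for this probe than the other transgenic samples. That array also held the most outlier-flagged spots, 44, and 8 spots with a local background above 3 times its median. Whether this bears on the MYB87 value was not tested. Markers of leaf and root were all well above background on enough arrays to be tested, as the label whole seedlings requires. The summed signal of 4 leaf markers ran from 24616% to 28624% in MYB87-SRDX and from 23822% to 32926% in wild type. That of 5 root markers ran from 4154% to 6866% in MYB87-SRDX and from 5138% to 8977% in wild type, and none of the 5 passed the test. One leaf marker, LHCB1.3 of the light-harvesting complex, fell by 0.98 on the log2 scale (adjusted p of 0.0039 by limma). Of 22 markers of anthers, pollen and nectaries, 17 were never well above background.

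Among the 10 genes, FUL was lower and SEP3 was higher in MYB87-SRDX, while 4 others did not pass the test and 4 were too dim to be tested. FUL, SEP1, SEP2, SEP3, SEP4 and PI passed the filter on dim probes, which asked that the probe be well above background in 3 or more samples of either group. AP1, CAL, AP3 and AG did not, and were not tested. Of the 6 tested genes, 1 rose and 1 fell at an adjusted p below 0.05 by limma, where 15.1% of all 20334 tested loci rose and 12.5% fell, 27.6% in all. Both calls were of at least 2-fold, and 1.83% of loci were called at that size or more in rising and 2.43% in falling. The number called among these genes is near what all loci show, though both changes were large. The median log2 difference of the 6 was -0.08, beside 0.01 for all tested loci. Groups did not overlap for 1 of the 6 genes, FUL, and for 30.8% of all tested loci. In samples of whole seedlings, fewer cells of a type and less RNA per cell cannot be told apart.

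**Figure D1:**
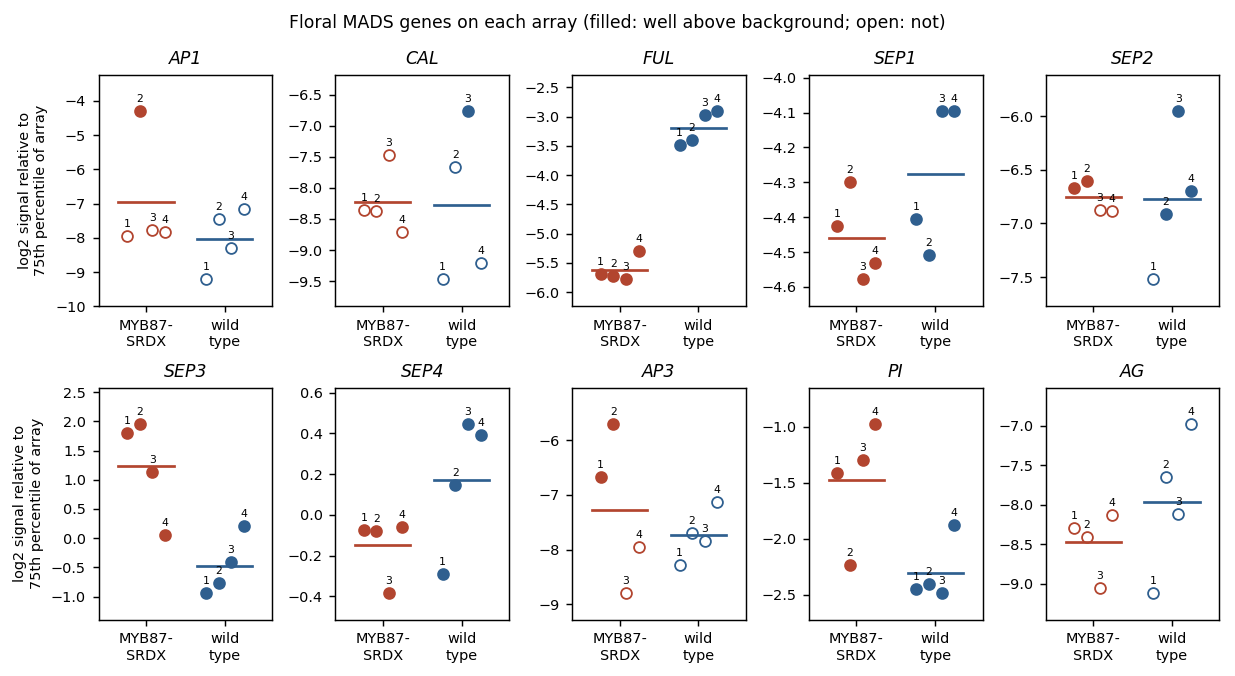
Log2 signal of the 10 floral MADS genes, with each array's 75th percentile at 0, for MYB87-SRDX (left in each panel) and wild type (right), with replicate numbers beside the points, group means as bars, and open points where the probe was not well above background. FUL separates the groups completely, SEP3 separates them except for MYB87-SRDX replicate 4, and AP1 stands up on a single array; the y axes differ between panels.

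FUL (FRUITFULL), a relative of AP1 that promotes the change of the meristem to flowering and later shapes the fruit, fell. Its signal was 1.93%, 1.89%, 1.82% and 2.55% in MYB87-SRDX, against 8.93%, 9.52%, 12.7% and 13.4% in wild type. All MYB87-SRDX values lay far below all wild-type values, and all 8 were well above background. On the log2 scale the gene averaged -5.62 ± 0.22 in MYB87-SRDX and -3.19 ± 0.29 in wild type (SD, n = 4 each). FUL was 5.42-fold lower, a log2 difference of -2.44 ± 0.17 (SE) that limma gave an adjusted p of 0.000565. From the most negative difference of all tested loci, FUL ranked 54. The highest of the MYB87-SRDX values came from replicate 4, the array with the lowest MYB87 signal of its group, and a relation to the MYB87 level was not tested. Without that array the difference was -2.55. Background correction by normexp, with an offset of 50 added to every spot, gave a smaller difference of -1.41 once spots of high local background were left out, still past the threshold. With those spots kept it was -0.82 and not past it (adjusted p of 0.44 by limma).

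AP1 and CAL, closely related factors that start the floral meristem, were near or below the detection limit. AP1 read 0.408%, 5.11%, 0.456% and 0.442% in MYB87-SRDX, against 0.168%, 0.577%, 0.318% and 0.699% in wild type. A single array carried the gene. MYB87-SRDX replicate 2 had a processed signal of 97.5, where the other MYB87-SRDX arrays had 6.28 to 7.53 and the wild-type arrays 2.82 to 11.8. CAL read 0.304%, 0.301%, 0.565% and 0.239% in MYB87-SRDX, against 0.141%, 0.492%, 0.923% and 0.169% in wild type, and was well above background on wild type replicate 3 alone. With the filter on dim probes removed, AP1 had a log2 difference of 1.07 with an adjusted p of 0.424 by limma, and CAL had 0.05 with an adjusted p of 0.962.

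SEP3, the SEP partner with the widest set of complexes and one that FT signalling can switch on ahead of flowering, rose. Its signal was 348%, 387%, 219% and 103% in MYB87-SRDX, against 52.4%, 58.8%, 75.7% and 115% in wild type. MYB87-SRDX replicates 1 to 3 lay above every wild-type sample, while MYB87-SRDX replicate 4 lay below wild type replicate 4, so the groups overlapped. Replicate 4 had the lowest MYB87 signal of the MYB87-SRDX arrays, but among replicates 1 to 3 SEP3 was highest where MYB87 was lowest. A relation of SEP3 to the MYB87 level was not tested. On the log2 scale SEP3 averaged 1.23 ± 0.87 in MYB87-SRDX and -0.47 ± 0.50 in wild type (SD, n = 4 each). SEP3 was 3.26-fold higher, a log2 difference of 1.71 ± 0.44 (SE) that limma gave an adjusted p of 0.0244. That call was lost without MYB87-SRDX replicate 1 (adjusted p of 0.0682) or 2 (0.05755) and without wild type replicate 2 (0.0694) or 3 (0.0513). In these fits the difference stayed between 1.47 and 1.73, while calls over all loci fell from 5604 to between 2951 and 4130. Without MYB87-SRDX replicate 4 the difference was 2.101, with an adjusted p of 0.007 by limma.

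**Figure D2:**
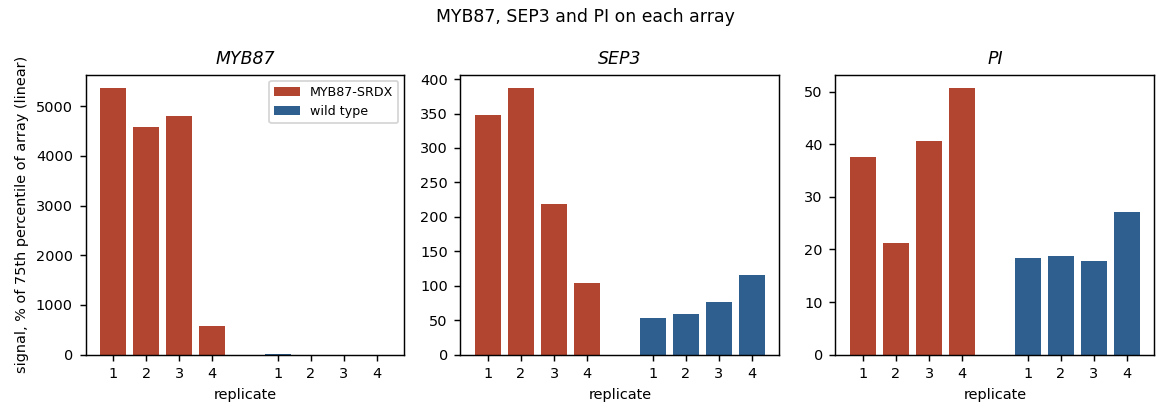
Signal of MYB87, SEP3 and PI on each array as a percentage of its 75th percentile (linear axes from 0, a scale for each gene), with the 4 MYB87-SRDX arrays left of the 4 wild-type arrays. MYB87 and SEP3 are both lowest among the MYB87-SRDX samples in replicate 4, where PI is highest. Among the wild-type samples SEP3 and PI are both highest in replicate 4. A relation among these genes was not tested.

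The remaining SEP genes did not pass. SEP1 read 4.65%, 5.08%, 4.19% and 4.32% in MYB87-SRDX, against 4.72%, 4.39%, 5.85% and 5.85% in wild type. Its log2 difference was -0.18, with a 95% interval from -0.45 to 0.09 and an adjusted p of 0.274 by limma. SEP2, the closest relative of SEP1, read 0.982%, 1.03%, 0.854% and 0.848% in MYB87-SRDX, against 0.544%, 0.8291%, 1.62% and 0.964% in wild type. These values sit at the limit of detection, with 2 MYB87-SRDX arrays and 3 wild-type arrays well above background. The interval of the SEP2 difference ran from -0.66 to 0.68 on the log2 scale (adjusted p of 0.976 by limma), so a change within that range in either direction could not be told from none. SEP4, the member of the group also active in leaves and stems, read 95%, 94.5%, 76.7% and 95.8% in MYB87-SRDX, against 81.7%, 111%, 136% and 131% in wild type. Its log2 difference was -0.32, with an interval from -0.71 to 0.06 and an adjusted p of 0.181 by limma. Wild type replicate 1 was the low sample there, and without it the difference was -0.48 with an adjusted p of 0.0214 by limma. That was the only 1 of 20 alternatives in which SEP4 passed.

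**Figure D3:**
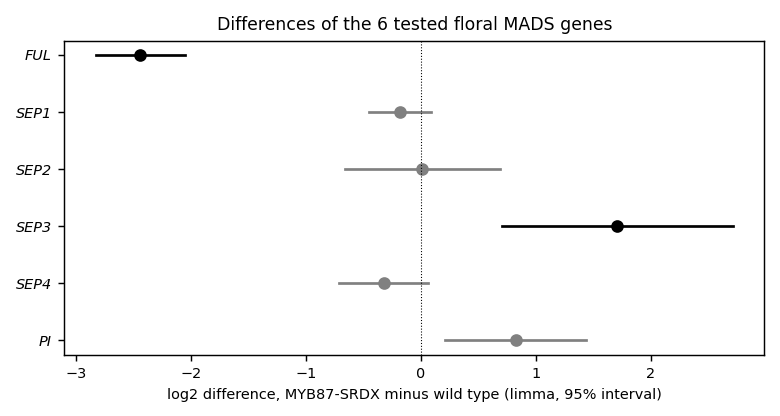
Log2 difference, MYB87-SRDX minus wild type, of the 6 tested floral MADS genes with the 95% interval of the limma fit; black marks genes past the threshold and grey those that are not. FUL at -2.44 lies far below 0, SEP3 at 1.71 and PI at 0.82 lie above it, and the intervals of SEP1, SEP2 and SEP4 include 0.

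Of the organ identity genes, PI gave the clearest signal. PI (PISTILLATA) works as a pair with AP3 in petals and stamens. It read 37.6%, 21.3%, 40.7% and 50.8% in MYB87-SRDX, against 18.3%, 18.8%, 17.9% and 27.2% in wild type. MYB87-SRDX samples 1, 3 and 4 lay above every wild-type sample, and MYB87-SRDX replicate 2 lay within the wild-type range. Its mean difference of 0.82 ± 0.27 (SE) on the log2 scale had an adjusted p of 0.0517 by limma, just short of the threshold. It was past the threshold in 8 of 20 alternatives, among them 1.08 without MYB87-SRDX replicate 2 (adjusted p of 0.0121). Among the MYB87-SRDX samples, PI was lowest in replicate 2, where SEP3 was highest, and highest in replicate 4, where SEP3 was lowest. In wild type the pattern was not opposite, and both genes were highest in replicate 4. A relation between PI and SEP3 was not tested.

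AP3, the partner of PI, was too dim to be tested. Its signal was 0.979%, 1.92%, 0.226% and 0.403% in MYB87-SRDX, against 0.322%, 0.482%, 0.433% and 0.716% in wild type. It was well above background on MYB87-SRDX replicates 1 and 2 and on no wild-type array. With the filter removed its log2 difference was 0.46, with an adjusted p of 0.645 by limma. Replicate 2 was the sample in which AP1 was also detected. AG, which specifies stamens and carpels and ends the growth of the floral meristem, was not well above background on any of the 8 arrays. It read 0.318%, 0.294%, 0.188% and 0.358% in MYB87-SRDX, against 0.18%, 0.498%, 0.36% and 0.792% in wild type, a log2 difference of -0.51 with the filter removed (adjusted p of 0.444 by limma). LFY, the meristem factor that activates AP1, AP3 and AG, was likewise never well above background.

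Of 21 listed inducers and activators of flowering 18 were tested, and 2 rose, 4 fell and 12 did not pass, near the 27.6% called over all loci. Their median log2 difference was -0.16, beside 0.01 for all loci. FT, the mobile signal from the leaf that activates AP1, FUL and SEP3 with its partner FD at the shoot tip, read 4.03%, 4.91%, 4.23% and 7.47% in MYB87-SRDX, against 16.4%, 21.5%, 16.6% and 18.8% in wild type. The log2 difference of FT was -1.87 (adjusted p of 0.00148 by limma), and that of FD, the bZIP partner, was -0.80 (0.0162). SOC1, a MADS factor that passes flowering signals on to LFY, fell by 0.38 on the log2 scale (adjusted p of 0.0212). PNY, a homeodomain protein that makes the shoot tip able to respond to these signals, rose by 0.53 (adjusted p of 0.0137). Chosen after their values were seen, SPL9 had -0.67 and SPL15 had 0.39, both past the threshold in groups that overlapped. Of 20 alternatives, the call was lost in 1 for FT, 2 for FD, 3 for PNY, 6 for SOC1, 7 for SPL9 and 14 for SPL15. Normexp without spots of high local background gave -1.17 for FT, still past the threshold, and -0.20 for FD (adjusted p of 0.236), and FD had the opposite sign, 0.44, in another alternative.

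Of 29 listed repressors of floral identity 28 were tested, and 3 rose, 8 fell and 17 did not pass, where 15.1% of all loci rose and 12.5% fell. The median over the tested repressors was -0.14 on the log2 scale. TEM1 and TEM2, factors that repress FT, rose by 0.79 (adjusted p of 0.0179 by limma) and 0.62 (0.00415) on the log2 scale. MSI1, a subunit of Polycomb complexes, rose by 0.25, a call lost in 12 of 20 alternatives. FLC, the MADS repressor of FT and SOC1, fell by 1.55 (adjusted p of 0.00274). The calls of FLC and TOE3 were each lost in 1 of 20 alternatives, those of TOE2 in 2 and those of TEM1 in 3, and FLC lay between -1.66 and -0.85 over them. Among the AP2-like repressors, a family singled out after its values were seen, TOE1, TOE2, TOE3, SMZ and SNZ all fell. SNZ had -0.94 (adjusted p of 0.000777) and TOE3 had -1.09 (0.00735), while AP2 itself, which restricts AG to the inner flower, had 0.11 (0.50). These signs held under quantile and median scaling. TFL1, the shoot identity factor that keeps AP1 and LFY off, read 2.55%, 2.6%, 1.54% and 8.31% in MYB87-SRDX, against 18.7%, 14.1%, 6.78% and 4.89% in wild type, with an adjusted p of 0.069.

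**Figure D4:**
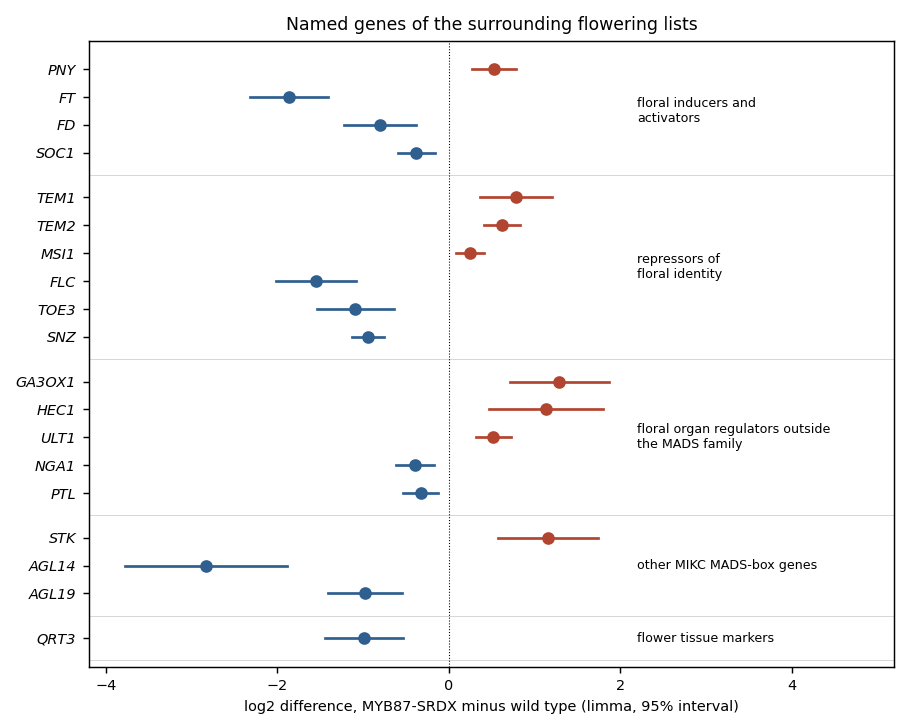
Log2 difference, MYB87-SRDX minus wild type, with the 95% interval of the limma fit, for the genes named by rule in the lists of flowering inducers, repressors, other floral regulators, other MADS-box genes and flower tissue markers; red points lie above 0 and blue points below. AGL14 at -2.83 and FT at -1.87 lie lowest, and GA3OX1 at 1.29 lies highest; AGL14 in MYB87-SRDX and STK in wild type were not well above background, so their points are no measured fold.

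Of 26 listed regulators that act beside the MADS factors in flowers 16 were tested, and 3 rose, 2 fell and 11 did not pass, near the 27.6% called over all loci, with a median log2 difference of 0.0078. GA3OX1, which makes active gibberellin, rose by 1.29 (adjusted p of 0.00945 by limma). HEC1, a bHLH factor of the carpel, rose by 1.13 (0.0238) and ULT1, a factor that relieves Polycomb repression of AG, rose by 0.52 (0.00622). NGA1, a B3 factor of leaf and style growth, fell by 0.39 (0.0226) and PTL, a trihelix factor of the sepal boundary, fell by 0.33 (0.0292). Of 20 alternatives, the call was lost in 1 for GA3OX1, 2 for ULT1, 4 for HEC1, 7 for NGA1 and 10 for PTL, which had the opposite sign, 0.09, in 1 of them. HEC1 was 0.60 under normexp without spots of high local background. WUS, CRC, INO and NZZ, which act in the floral meristem, carpel and ovule, were never well above background.

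Of 18 other MADS-box genes of the same structural type, 12 were tested, and 1 rose, 2 fell and 9 did not pass, near the 27.6% called over all loci, with a median log2 difference of 0.0026. AGL14, a MADS factor best known from roots, read 0.191%, 0.392%, 0.273% and 0.404% in MYB87-SRDX, never well above background, against 4.13%, 2.76%, 1.38% and 1.35% in wild type. It was at least 2.83-fold lower in MYB87-SRDX (adjusted p of 0.00363 by limma). For such a bound the dim group is given the signal of the dimmest probe well above background on each of its arrays, or the signal of the gene where that is higher. STK, the ovule identity factor, read 0.969%, 1.12%, 0.966% and 0.925% in MYB87-SRDX, against 0.574%, 0.624%, 0.417% and 0.264% in wild type, where no array had it well above background. In MYB87-SRDX it was at least 1.41-fold higher (adjusted p of 0.0145 by limma). AGL14 and STK each passed the filter only through the group where they were higher, so their p-values do not count as support. They make up the 1 rise and 1 of the 2 falls counted above. AGL19, a flowering activator kept silent by Polycomb, fell by 0.98 (adjusted p of 0.00887). Normexp without spots of high local background gave -0.46 for AGL14 (adjusted p of 0.0357 by limma) and 0.25 for STK (0.0504). Each was less than the bound of its gene. AGL19 had -0.29 (0.12) in the same fit. In another alternative AGL14 and AGL19 had the opposite sign, 0.24 and 0.37, and neither passed. Of the 22 flower tissue markers 3 were tested. QRT3, a polygalacturonase that separates pollen grains, fell by 0.98 (adjusted p of 0.0106 by limma), a call lost in 1 of 20 alternatives. The other 2, LAP5 with 0.42 and LAP6 with 0.11, did not pass, where 27.6% of all loci were called. The summed signal of that list ran from 42.9% to 55.55% in MYB87-SRDX and from 55.3% to 63.9% in wild type. With 17 of the 22 markers never well above background, that sum is no measure of the amount of flower tissue.

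The loci closest to FUL and SEP3 in pattern were taken by the root mean square difference of log2 values centred on the mean of the 8 arrays. For FUL they were AT3G05640 (0.223), AT3G13270 (0.227) and AT5G28910 (0.269), with log2 differences of -2.23, -2.38 and -1.95. For SEP3 they were LLG2 (0.269), ARO1 (0.354) and AT1G49640 (0.385), with log2 differences of 1.39, 1.59 and 1.72. All 3 distances for SEP3 were at or above the largest for FUL.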

How the data were processed

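Total RNA was measured on 8 one-colour Cy3 arrays. The authors deposited scanner tables of spot intensity. The submitters' processing notes name Agilent Feature Extraction, version 9.1.3.1. The deposited value table holds the same intensity times a constant, 0.001175 on the MYB87-SRDX slide and 0.001094 on the wild-type slide, found here by division. Its column medians were 0.108, 0.133, 0.114 and 0.114 in MYB87-SRDX and 0.129, 0.15, 0.123 and 0.105 in wild type. Its values are linear and uncentred, and the reason for the constants is not stated there.

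Outlier-flagged spots, 3 to 44 per array, were set to missing. The log2 processed signal was reduced by the 75th percentile of its array, and repeated spots of one probe were then averaged. A probe had to be well above background in 3 or more samples of either group, and the brightest such probe stood for a locus. Tests used lmFit and eBayes of limma (version 3.58.1, R 4.3.3). Of 20334 tested loci 72 missed an array, none of them a floral MADS gene, and 5604 passed an adjusted p (Benjamini-Hochberg over all tested loci) of 0.05. Symbols come from the TAIR10.1 gene table, which held 20217 of the tested loci, and from the lists. The steps were tested on simulated data. The planned normexp on mean signals was run on median signals, since mean signals are not a column of these tables. The number of arrays limits the precision. Probe sequences were not used, so cross-reading between close relatives such as AP1 and CAL or SEP1 and SEP2 was not checked.

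The floral genes and the lists were chosen with earlier results of these data known. All 10 floral MADS genes are named. From the other lists the rule takes up to 3 largest rises and falls among loci past the threshold with groups that do not overlap, and for each called floral MADS gene the 3 loci closest in pattern. Alternatives are given in the closing section. Sequences were not used here.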

Additional observations from a re-analysis of the deposited data

Results flagged for a closer look

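Of 26 sets of 4 arrays examined (the floral MADS genes, MYB87, FT and FLC in each group), 4 held an array far from the other 3, where chance gives about 1 in 20. On the log2 scale relative to the 75th percentile, AP1 was -4.29 in MYB87-SRDX replicate 2 and -7.94 to -7.78 on the other MYB87-SRDX arrays. MYB87 was 2.54 in MYB87-SRDX replicate 4 and 5.52 to 5.75 on the others. SEP4 was -0.382 in MYB87-SRDX replicate 3, below the -0.081 to -0.0614 of the others, a small gap on this scale. PI was -1.88 in wild type replicate 4, above the -2.48 to -2.41 of the other wild-type arrays.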

How the results depend on the processing

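Of 20 alternatives, FUL kept its call in 19 and SEP3 in 14, and PI gained one in 8. The 2 alternatives added after seeing the data were the deposited value table without scaling and normexp without spots of high local background. Median scaling moved the median of all loci to 0.10 and the share of calls that were higher to 66%, from 54.7%.

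Leaving out 1 array at a time gave differences of -2.55 to -2.34 for FUL, 1.47 to 2.101 for SEP3, 0.66 to 1.08 for PI (past the threshold also without wild type replicate 4), -0.48 to -0.23 for SEP4, -0.26 to -0.12 for SEP1 and -0.24 to 0.056 for SEP2. Calls over all loci were 2951 (without wild type replicate 2) to 6006. Floral MADS genes called were 0 to 2 higher and 1 to 2 lower, inducers 1 to 2 and 2 to 6, repressors 1 to 3 and 7 to 9, organ regulators 2 to 4 and 0 to 3, other MADS-box genes 1 to 3 and 2 to 4, and flower markers 0 to 1 higher.

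Normexp with all spots gave 1350 calls, with FUL at -0.82, SEP3 at 1.67 (adjusted p of 0.0661) and SEP1 at 0.36, no floral MADS gene called (0 higher, 0 lower), 0 and 0 inducers, 1 and 4 repressors, 0 and 0 organ regulators, 0 and 0 other MADS-box genes and 0 flower markers lower. Without its 9 spots of high local background it gave 1 organ regulator lower, 0 higher and 1 lower of the other MADS-box genes, and SEP2 at -0.0182. The value table as deposited gave 2197 calls, 2 floral MADS genes higher, 0 higher and 2 lower inducers, 1 higher and 0 lower organ regulators, PI at 0.81 and SEP2 at -0.0048. Scaled, it gave 2 floral MADS genes higher and PI at 0.83.

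Quantile scaling gave 2 floral MADS genes higher, 1 organ regulator lower, PI at 0.93 and SEP2 at -0.15. Median scaling gave 2 floral MADS genes higher, 1 higher and 2 lower inducers, 0 organ regulators lower, 1 flower marker higher and PI at 0.91. No filter on dim probes gave 1 inducer and 2 flower markers higher. An intensity trend gave 2 floral MADS genes and 1 inducer higher and PI at 0.82. Array weights gave 1 inducer, 3 other MADS-box genes and 1 flower marker higher, and SEP2 at -0.10. The causes were not tested.

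Pairing of the samples by replicate number was not shown. Same-numbered deviations correlated at 0.0947, 0.0897, 0.155 and -0.223, and not every sample correlated best with its own number. With 4 arrays a group this check cannot exclude pairing. With the replicate block 3612 loci were called, SEP3 stayed at 1.71 (adjusted p of 0.083 by limma), PI at 0.82 (0.042), and 0 inducers, 1 repressor and 2 other MADS-box genes were higher and 0 organ regulators lower. Genes at the limit of detection (AP1, CAL, AP3, AG and SEP2) are limited by signal over background, and 4 arrays a group limit the rest.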

Other observations

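UFO, an F-box partner of LFY that activates AP3, was well above background on MYB87-SRDX replicates 2 and 4 and on none of the wild-type arrays. It read 0.159%, 0.717%, 0.479% and 4.88% of the 75th percentile in MYB87-SRDX, against 0.139%, 0.125%, 0.139% and 0.169% in wild type. UFO was highest in MYB87-SRDX replicate 4 and AP1 in MYB87-SRDX replicate 2, where both were well above background. A relation between them was not tested. RBE, a petal factor that limits AG, read 1.09%, 0.874%, 0.378% and 0.384% in MYB87-SRDX, against 0.149%, 0.263%, 0.232% and 0.176% in wild type, and was well above background on 2 MYB87-SRDX arrays. Neither gene passed the filter, and neither was tested.

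Neighbours were looked up after values were seen. The 2 tested loci just before FUL in the genome order were also lower, where 12.5% of all tested loci fell. RLK1 (AT5G60900) had a log2 difference of -1.37 ± 0.20 (SE, adjusted p of 0.00363 by limma) and MYB34 (AT5G60890) had -0.91 ± 0.18 (0.00926). On the other side COB had -0.03 and AT5G60930 had -0.37, neither past the threshold. Around SEP3, AT1G24240 and AT1G24210 before it had 0.04 and -0.07, and AT1G24265 and AT1G24267 after it had 0.34 (adjusted p of 0.0289 by limma) and 0.09. Loci past the threshold also lay beside SEP1, SEP2, SEP4 and PI, among them AT5G15790 (-0.59) and AT5G15802 (0.46) at SEP1 and DIN10 (1.12) at PI. Called neighbours thus lay beside every tested floral MADS gene, where 27.6% of all tested loci were called. Those beside SEP1 went in both directions, and those beside FUL fell. A local effect was not tested.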
